A study of Mus musculus with 9 samples.

Results

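The genes that take up, store and export iron in the upper small intestine were followed in mouse (Mus musculus) jejunum, as 8 members of the 21868 genes in the deposited count table. They were chosen with earlier results of these data known and matched by symbol: Cybrd1, Slc11a2, Slc46a1, Fth1, Ftl1, Slc40a1, Heph and Tfrc. All 8 were found and all 8 passed the filter on low counts. Mice received total parenteral nutrition (TPN, feeding through a vein instead of the gut), were starved or had a sham treatment, each for 24 h. A 5 cm piece of jejunum was then taken and opened lengthwise, and RNA selected with oligo(dT) was sequenced in bulk, with 3 libraries for TPN, 3 for starvation and 3 for sham. The labels name no strain, age, sex, genotype or infusate, so nothing further that the groups share is known. They call the replicates biological without saying that each came from its own mouse, so p-values measure the spread between these libraries, which may be partly technical.

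An enterocyte takes up dietary iron in steps. A reductase on its brush border turns ferric into ferrous iron, a transporter carries ferrous iron into the cell, ferritin holds what is not used, and a transporter on the opposite face passes the rest to the blood with the help of an oxidase. The messages of several of these genes carry an iron-responsive element, a short hairpin that iron regulatory proteins bind when cellular iron is low. In a 5′ untranslated region the bound hairpin blocks translation, and in a 3′ untranslated region it protects the message from decay. In the mouse intestine, Cybrd1, Slc11a2 and Slc40a1 are also known targets of the hypoxia factor HIF-2alpha, which is encoded by Epas1.

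The hairpin was searched for in the untranslated regions of GENCODE M21 transcripts on GRCm38, in the sense of the transcript only. The pattern was a C, 5 bases, the loop CAGTGN and 5 bases that pair with the first 5, with G-T pairs allowed. Of 21877 protein-coding genes, 160 (0.731%) held it in either region, 31 (0.142%) in a 5′ and 129 (0.59%) in a 3′ untranslated region. Among the 8 genes, 3 held it in the 5′ and 1 in the 3′ untranslated region. The sites are shown because they set apart the members with this element, and they are given 5′ to 3′ on the transcript with the loop in capitals. The Slc40a1 site lies at chr1:45925465-45925493 on the minus strand, in 1 of 4 coding transcripts. The Fth1 site lies at chr19:9982732-9982760 on the plus strand, in 4 of 5 coding transcripts. The Ftl1 site lies at chr7:45459779-45459807 on the minus strand, in 1 of 2 coding transcripts.
Slc40a1 5′: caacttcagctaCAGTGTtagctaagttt
Fth1 5′: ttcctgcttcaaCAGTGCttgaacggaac
Ftl1 5′: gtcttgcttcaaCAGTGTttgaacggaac
The 4 Tfrc sites lie on the plus strand, in 1 of 3 coding transcripts. They are at chr16:32631219-32631247, chr16:32631598-32631626, chr16:32631663-32631691 and chr16:32631710-32631738.
Tfrc 3′ site 1: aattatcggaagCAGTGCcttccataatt
Tfrc 3′ site 2: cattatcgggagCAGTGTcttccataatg
Tfrc 3′ site 3: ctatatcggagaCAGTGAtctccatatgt
Tfrc 3′ site 4: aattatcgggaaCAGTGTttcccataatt
No match in the other members says only that this pattern is not in those annotated regions.

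Library totals ran from 7779877 counts (TPN replicate 2) to 12084278 counts (sham replicate 3), so 1 read corresponded to 0.0828 to 0.129 CPM. CPM values below are counts divided by library size after adjustment with TMM factors. The 8 genes took 0.360% to 0.731% of a library's counts. The piece of gut was checked against regional markers. Gata4, a factor of the proximal intestine, ran from 154 to 254 CPM, while the ileal gene Fabp6 had 0 reads in 8 libraries and 1 read in sham replicate 3. Several libraries stood apart from their groups. Sham replicate 2 had a summed level of 11109 CPM over 11 smooth muscle markers, against 1290 and 1405 CPM in sham replicates 1 and 3. Starvation replicate 3 had 8042 CPM over 6 villus tip markers and 115 CPM over 8 proliferation markers, against 1337 and 2103 CPM and 299.8 and 256 CPM in starvation replicates 1 and 2. The 8 pancreatic acinar markers (digestive enzyme genes) summed to 235.6, 10705 and 39.6 CPM in TPN replicates 1 to 3, 1362, 28.6 and 27.8 CPM in starvation replicates 1 to 3, and 1959, 42.3 and 39.7 CPM in sham replicates 1 to 3. All 8 were detected in TPN replicates 1 and 2, starvation replicate 1 and sham replicate 1, and 3 or 4 of them in the other libraries. TPN replicate 2 differed from TPN replicates 1 and 3 with a chi-square per gene of 41.5 and 43.1, against 7.74 between the other two. In bulk tissue, fewer cells of a type and less RNA per cell cannot be told apart.

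Levels differed widely between the members when scaled to the length of the principal transcript, in CPM per kb. Over the 9 libraries, Fth1 averaged 2884 ± 953 (SD), Ftl1 1594 ± 654 and Slc46a1 235 ± 114 CPM per kb, and these held the ranks 1, 2 and 3 in every library. Heph at 34.4 ± 8.98, Tfrc at 29.99 ± 10.9 and Slc11a2 at 20.7 ± 8.95 CPM per kb exchanged ranks between libraries. Slc40a1 averaged 16.3 ± 24.4 CPM per kb. It held rank 4 in sham replicate 1, at 79.2 CPM per kb, and rank 7 or 8, below those genes, in every other library. Cybrd1 came to 3.04 ± 2.83 CPM per kb and held rank 7 or 8 throughout. With the merged length of all annotated exons instead, Ftl1 (1152 CPM per kb) stood above Fth1 (772 CPM per kb), so the order of the ferritin chains depends on the length used.

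In TPN jejunum against sham jejunum, 1 of the 8 members was called lower and none higher by the edgeR quasi-likelihood test at an adjusted p under 0.05. Across the 14668 genes tested, 8.6% were called in this comparison, 3.48% as higher and 5.12% as lower. The called member was Cybrd1, and 5 members had an unadjusted p under 0.05, against 26.9% of all genes tested. In 4 members (Cybrd1, Slc46a1, Fth1 and Ftl1) no TPN library overlapped a sham library, against 42.7% of all genes tested. The median log2 fold change was -0.93 over the members and -0.02 over all genes tested. Enterocyte markers, of the cell type that absorbs iron, had a median of -0.80 in the same comparison, with 3 of 10 called lower (Alpi, Anpep and Fabp2) and none higher. All 10 were detected in every library, and their summed level was 33712 to 40677 CPM in TPN libraries and 45389 to 85597 CPM in sham libraries, which did not overlap. The median of 6 villus tip markers was -1.33, with none called. Pan-epithelial markers had a median of 0.02, with 1 of 12 called higher and none lower. The part of these markers in the members' differences was not tested. Omitting both sham replicate 2 and starvation replicate 3, 6 members were called lower, against 29.8% of all genes called and 14.8% called lower. DESeq2 called 3 members lower, against 15.5% of all genes called and 9.02% called lower. With libraries scaled to pan-epithelial markers, 3 members were called lower, against 9.44% of all genes called and 7.43% called lower.

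**Figure D1:**
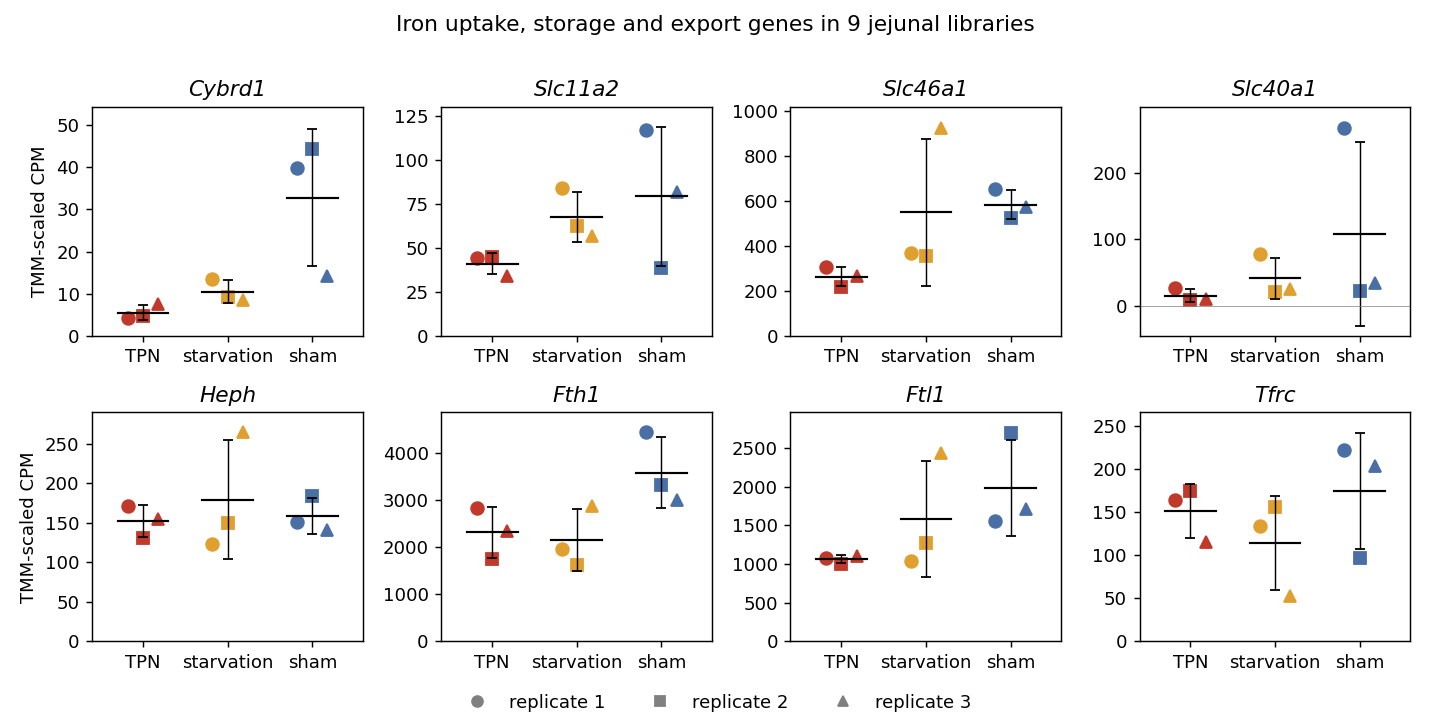
Level of each of the 8 genes in TMM-scaled CPM (vertical axes) in the 9 libraries, by group from TPN through starvation to sham. Points are libraries, with the shape giving the replicate number; horizontal lines are group means and error bars the SD (n = 3). Cybrd1 in TPN libraries lay between 4.12 and 7.45 CPM, below all sham libraries, and Slc40a1 reached 267 CPM in sham replicate 1 alone.

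Cybrd1 encodes duodenal cytochrome b, the brush border ferric reductase, and lies at chr2:71117923-71142926. It had 4.12, 4.77 and 7.45 CPM in TPN replicates 1 to 3, 13.6, 9.29 and 8.45 CPM in starvation replicates 1 to 3, and 39.95, 44.3 and 14.2 CPM in sham replicates 1 to 3. The 3 groups did not overlap, and sham replicate 3 was the lowest of its group. These levels rested on 40 to 93 reads in TPN libraries, 73 to 170 in starvation libraries and 170 to 415 in sham libraries.
In TPN jejunum against sham jejunum Cybrd1 fell by 2.58 ± 0.44 on the log2 scale (SE), to 0.167 of the sham level, with an edgeR adjusted p of 0.00999. The call was lost without TPN replicate 1 (-2.41, adjusted p 0.0624), without TPN replicate 2 (-2.50, 0.0582) and with the smooth muscle marker level as a covariate (-2.12, 0.0574), and without sham replicate 2 it held (-2.30, 0.0227). The fits that lost the call called 1.45%, 1.49% and 2.9% of all genes, in that order, against 8.6% in the main fit. The summed smooth muscle marker level (11 of 11 markers detected in every library) was 469 to 1395 CPM in TPN libraries and 1290 to 11109 CPM in sham libraries. Its part in the result beyond that covariate was not tested.
In starvation jejunum the Cybrd1 log2 difference from sham was -1.64 ± 0.42 with an adjusted p of 0.0627, and DESeq2 gave -1.66 with an adjusted p of 0.00352. For TPN against starvation jejunum the log2 difference was -0.94 ± 0.43 with an edgeR adjusted p of 0.226. The genes most like Cybrd1 over the 9 libraries, by the root mean square difference of mean-centred log2 CPM among 10151 genes, were Spon2 (0.466), Fhl1 (0.517) and Col3a1 (0.519), set against an SD of 1.12 for Cybrd1 itself.

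Slc11a2 encodes DMT1, the transporter that brings ferrous iron across the brush border, and lies at chr15:100387898-100425072. It had 44.0, 44.6 and 34.1 CPM in TPN libraries, 83.7, 62.3 and 56.8 CPM in starvation libraries, and 117, 38.5 and 81.8 CPM in sham libraries, in replicate order. TPN libraries lay below all starvation libraries, but sham replicate 2 lay inside the TPN range.
The log2 difference of Slc11a2 in TPN against sham was -0.95 ± 0.34 with an edgeR adjusted p of 0.111. Without sham replicate 2 it was -1.28 with an adjusted p of 0.0157, and with the smooth muscle marker level as a covariate -1.66 with an adjusted p of 0.0104. The log2 difference was -0.73 ± 0.34 in TPN against starvation (adjusted p 0.239) and -0.23 ± 0.34 in starvation against sham (adjusted p 0.724). With the covariate these were -0.99 (adjusted p 0.0177) and -0.66 (adjusted p 0.127). Of its exonic length, 6.33% overlaps Gm5475 on the other strand, whose reads may not be separable.

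Slc46a1 encodes the proton-coupled folate transporter, first described as a heme carrier, and lies at chr11:78465697-78472059. It had 305, 218 and 266 CPM in TPN libraries, 367, 354 and 925 CPM in starvation libraries, and 652, 522 and 574 CPM in sham libraries. TPN libraries lay below every library of the other groups, and starvation replicate 3 was the highest of all 9.
The log2 difference of Slc46a1 was -1.15 ± 0.36 in TPN against sham (edgeR adjusted p 0.0756) and -1.06 ± 0.36 in TPN against starvation (adjusted p 0.115). Without starvation replicate 3, which belongs to neither group of the first comparison but shares its estimate of spread, TPN against sham gave -1.12 with an adjusted p of 0.00200. DESeq2 called both of these differences (adjusted p 0.0175 and 0.0358). In starvation against sham the log2 difference was -0.09 ± 0.35 (adjusted p 0.911), and it was -0.72 with an adjusted p of 0.0324 without starvation replicate 3. The fit without that library called 21.3% of all genes in TPN against sham and 11.6% in starvation against sham. The main fit called 8.6% and 3.69%. Villus tip markers moved with starvation replicate 3, at 8042 CPM summed over 6 of 6 markers, and their part was not tested beyond leaving it out.

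Fth1 and Ftl1 encode the heavy and light chains of ferritin, the cage that stores iron, and lie at chr19:9980598-9985098 and chr7:45457944-45459884. Fth1 had 2838, 1756 and 2330 CPM in TPN libraries, 1966, 1612 and 2873 CPM in starvation libraries, and 4435, 3312 and 2997 CPM in sham libraries. Every TPN and every starvation library lay below every sham library.
The Fth1 log2 difference was -0.63 ± 0.28 in TPN against sham (edgeR adjusted p 0.186) and -0.74 ± 0.28 in starvation against sham (adjusted p 0.160). These comparisons share the sham libraries. Without starvation replicate 3, where 11.6% of all genes were called in starvation against sham, the value there was -1.03 with an adjusted p of 0.0300. The difference was 0.10 ± 0.28 in TPN against starvation (adjusted p 0.869).
Ftl1 had 1075, 1002 and 1107 CPM in TPN libraries, 1034, 1266 and 2436 CPM in starvation libraries, and 1552, 2702 and 1716 CPM in sham libraries. The TPN libraries were close together and below all sham libraries, whereas starvation replicate 3 was above sham replicates 1 and 3.
The Ftl1 log2 difference was -0.91 ± 0.34 in TPN against sham (edgeR adjusted p 0.121), -0.33 ± 0.33 in starvation against sham (adjusted p 0.576) and -0.57 ± 0.33 in TPN against starvation (adjusted p 0.348). TPN against sham gave -0.87 with an adjusted p of 0.0181 without starvation replicate 3, and -0.31 with an adjusted p of 0.700 with the smooth muscle covariate. Those fits called 21.3% and 2.9% of all genes in TPN against sham, in that order. The copy Ftl1-ps1 had 830 reads in all 9 libraries, at most 0.857% of the Ftl1 reads of a library, and Fthl17a to Fthl17f had none. Of the Ftl1 exonic length, 26.49% overlaps Gm10252 on the other strand.
The ratio of Fth1 to Ftl1 reads within a library does not depend on scaling between libraries. It was 2.64, 1.75 and 2.10 in TPN libraries, 1.90, 1.27 and 1.18 in starvation libraries, and 2.86, 1.23 and 1.75 in sham libraries. All groups overlapped. The mean log2 ratio was 1.09 ± 0.30 in TPN, 0.50 ± 0.37 in starvation and 0.87 ± 0.61 in sham libraries (SD, n = 3 each). Two-sided exact permutation tests gave p = 0.6 for TPN against sham, p = 0.6 for starvation against sham and p = 0.2 for TPN against starvation, all 0.9 after adjustment over 6 ratio tests, where 3 against 3 cannot go below 0.1.

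Slc40a1 encodes ferroportin, the iron exporter of the basolateral membrane, and lies at chr1:45908068-45926523. It had 26.6, 9.06 and 10.2 CPM in TPN libraries, 77.2, 21.4 and 24.6 CPM in starvation libraries, and 267, 22.8 and 34.0 CPM in sham libraries. Replicate 1 was the highest library of each group, TPN replicate 1 lay above sham replicate 2, and the whole range was 29.5-fold, the widest among the members.
The Slc40a1 log2 difference in TPN against sham was -2.81 ± 0.95 with an edgeR adjusted p of 0.0972. Sham replicate 1 carried most of it: without that library the value was -0.89 with an adjusted p of 0.411. DESeq2 gave -2.82 with an adjusted p of 0.0424. In starvation against sham the value was -1.39 ± 0.90 (edgeR adjusted p 0.377), and it was 0.53 without sham replicate 1. Between TPN and starvation it was -1.42 ± 0.92 (adjusted p 0.398).
Macrophages also express ferroportin, and 9 or 10 of 10 macrophage markers were detected in each library. Their summed level was 355 to 375 CPM in TPN, 223 to 288 CPM in starvation and 296 to 500.5 CPM in sham libraries, with 318 CPM in sham replicate 1. The gene nearest to Slc40a1 over the 9 libraries, named after its values were seen, was Pdx1, a transcription factor of the duodenum and proximal gut, at a root mean square log2 difference of 0.592 against an SD of 1.40 for Slc40a1. Pdx1 had 13.4, 4.05 and 6.25 CPM in TPN libraries, 36.3, 13.0 and 26.5 CPM in starvation libraries, and 69.4, 8.11 and 30.7 CPM in sham libraries. Sham replicate 1 was the highest and TPN replicate 2 the lowest library for both genes. Pdx1 is also a pancreatic gene. Acinar markers summed to 1959 CPM in sham replicate 1, 1362 CPM in starvation replicate 1 and 235.6 CPM in TPN replicate 1. Each of these was the highest library of its group for both Slc40a1 and Pdx1. In TPN replicate 2, where both genes were lowest, acinar markers summed to 10705 CPM. In the remaining libraries they summed to 27.8 to 42.3 CPM. The part of pancreatic tissue in the Slc40a1 and Pdx1 levels was not tested. The summed level of 3 proximal markers (Pdx1, Onecut2 and Gata4, all detected in every library) was 349 to 413 CPM in TPN, 348 to 380 CPM in starvation and 259 to 496 CPM in sham libraries. These markers did not move together. Onecut2 was higher in TPN libraries (182 to 229 CPM) than in sham libraries (71.2 to 173 CPM). Gata4 was lower in TPN libraries (154 to 171 CPM) than in sham libraries (180 to 254 CPM). Slc10a2, the ileal bile acid transporter, had 58, 41 and 40 reads in TPN libraries, 12, 10 and 19 reads in starvation libraries, and 15, 8 and 8 reads in sham libraries, and rose by 2.09 ± 0.48 in TPN against sham (edgeR adjusted p 0.0314). Whether the position of the 5 cm piece along the gut differed between libraries was not tested.

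**Figure D2:**
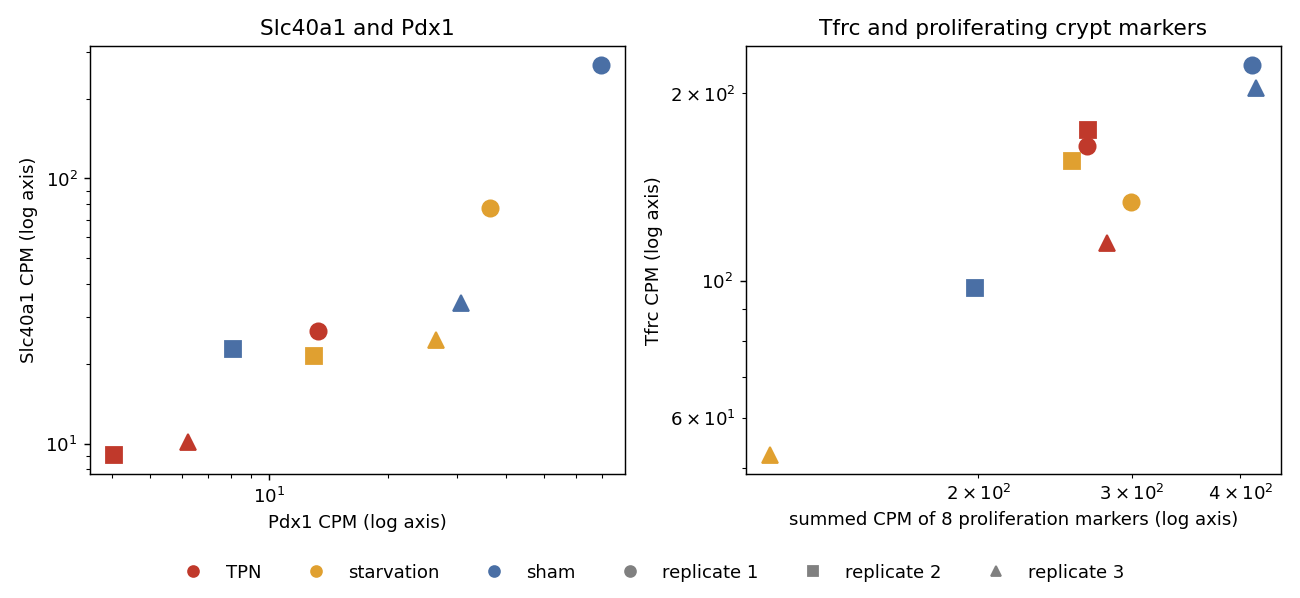
Left, Slc40a1 against Pdx1, both in CPM; right, Tfrc in CPM against the summed CPM of 8 proliferation markers; all axes are logarithmic. Each point is a library, coloured by group and shaped by replicate number. Sham replicate 1 is at the top right of the left panel (69.4 and 267 CPM) and starvation replicate 3 at the bottom left of the right panel (115 and 52.4 CPM).

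Heph encodes hephaestin, the copper-containing oxidase that works beside ferroportin, and lies on the X chromosome at chrX:96455359-96574485. It had 171, 130 and 155 CPM in TPN libraries, 123, 150 and 265 CPM in starvation libraries, and 150.97, 184 and 141 CPM in sham libraries. The groups overlapped, and the range of 2.16-fold was the narrowest among the members.
The Heph log2 difference was -0.06 ± 0.27 in TPN against sham (95% interval -0.67 to 0.54, edgeR adjusted p 0.906). It was 0.17 ± 0.27 in starvation against sham (adjusted p 0.735) and -0.24 ± 0.27 in TPN against starvation (adjusted p 0.644).

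Tfrc encodes the transferrin receptor, through which dividing and other cells take up iron from blood, and lies at chr16:32608920-32632794. It had 165, 175 and 115 CPM in TPN libraries, 134, 156 and 52.4 CPM in starvation libraries, and 222, 97.4 and 204 CPM in sham libraries. All groups overlapped, and starvation replicate 3 was the lowest.
The Tfrc log2 difference was -0.20 ± 0.41 in TPN against sham (95% interval -1.12 to 0.72, edgeR adjusted p 0.785), -0.61 ± 0.41 in starvation against sham (adjusted p 0.396) and 0.41 ± 0.41 in TPN against starvation (adjusted p 0.597). With the smooth muscle covariate these were -1.03 (adjusted p 0.159), -1.19 (0.0922) and 0.16 (0.744). All 8 proliferation markers were detected in every library, with a summed level of 267 to 281 CPM in TPN, 115 to 299.8 CPM in starvation and 198 to 417 CPM in sham libraries. Sham replicate 2 and starvation replicate 3 were the lowest libraries for Tfrc and for these markers, whose part was not tested.
The ratio of Tfrc to Fth1 reads was 0.0580, 0.0996 and 0.0494 in TPN libraries, 0.0682, 0.0967 and 0.0182 in starvation libraries, and 0.05004, 0.0294 and 0.0680 in sham libraries. The groups overlapped. Two-sided exact permutation tests on the log2 ratio gave p = 0.5 for TPN against sham, p = 0.9 for starvation against sham and p = 0.8 for TPN against starvation.

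In starvation jejunum against sham jejunum, edgeR called 0 of the 8 members, and 2 (Cybrd1 and Fth1) had an unadjusted p under 0.05. Such a p was reached by 23.4% of all genes tested. Of all genes tested, 3.69% were called, 2.55% as higher and 1.14% as lower. DESeq2 called 1 member lower, against 9.59% of all genes called and 3.78% called lower. Omitting sham replicate 2 together with starvation replicate 3, 3 members (Fth1, Ftl1 and Slc46a1) were called lower, against 19.9% of all genes called and 9% called lower. Scaling to pan-epithelial markers gave 0 members, against 12.2% of all genes called and 0.532% called lower. The groups did not overlap in Cybrd1 and Fth1, against 25.1% of all genes, and the median log2 fold change of the members was -0.47, against -0.01 over all genes.

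Between TPN and starvation jejunum, edgeR again called 0 members, and 1 (Slc46a1) had an unadjusted p under 0.05, against 23.1% of all genes tested. Of all genes tested, 5.84% were called, 1.94% as higher and 3.9% as lower. DESeq2 called 1 member lower (Slc46a1), against 11.4% of all genes called and 7.02% called lower. Omitting both sham replicate 2 and starvation replicate 3, 1 member was called lower (Slc11a2, -0.80, adjusted p 0.0144), against 21.6% of all genes called and 11.5% called lower. Scaling to pan-epithelial markers gave 2 members called lower (Ftl1 and Slc46a1), against 21.7% of all genes called and 21% called lower. The groups did not overlap in Slc11a2, Cybrd1 and Slc46a1, against 33.6% of all genes, and the median was -0.65 over the members and -0.03 over all genes.

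**Figure D3:**
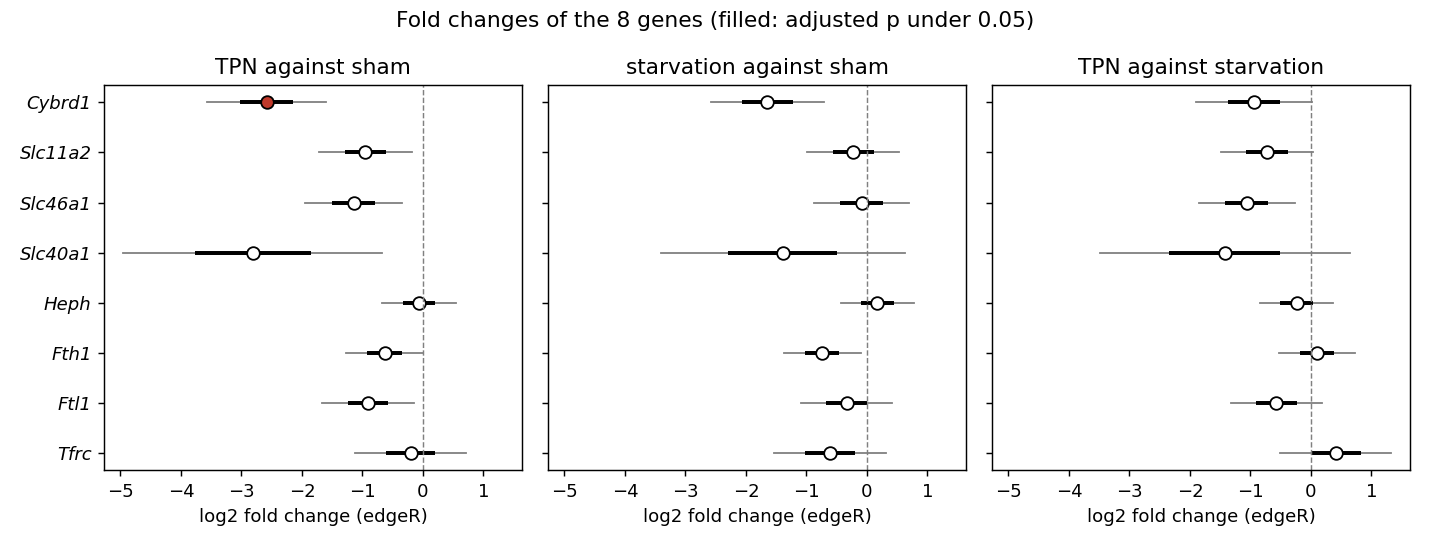
Log2 fold change (horizontal axis, edgeR) of each member in TPN against sham, starvation against sham and TPN against starvation, with thick bars for the SE, thin bars for the 95% interval and filled points for an adjusted p under 0.05. Cybrd1 in TPN against sham (-2.58) is the only filled point, and Slc40a1 has the widest intervals.

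**Figure D4:**
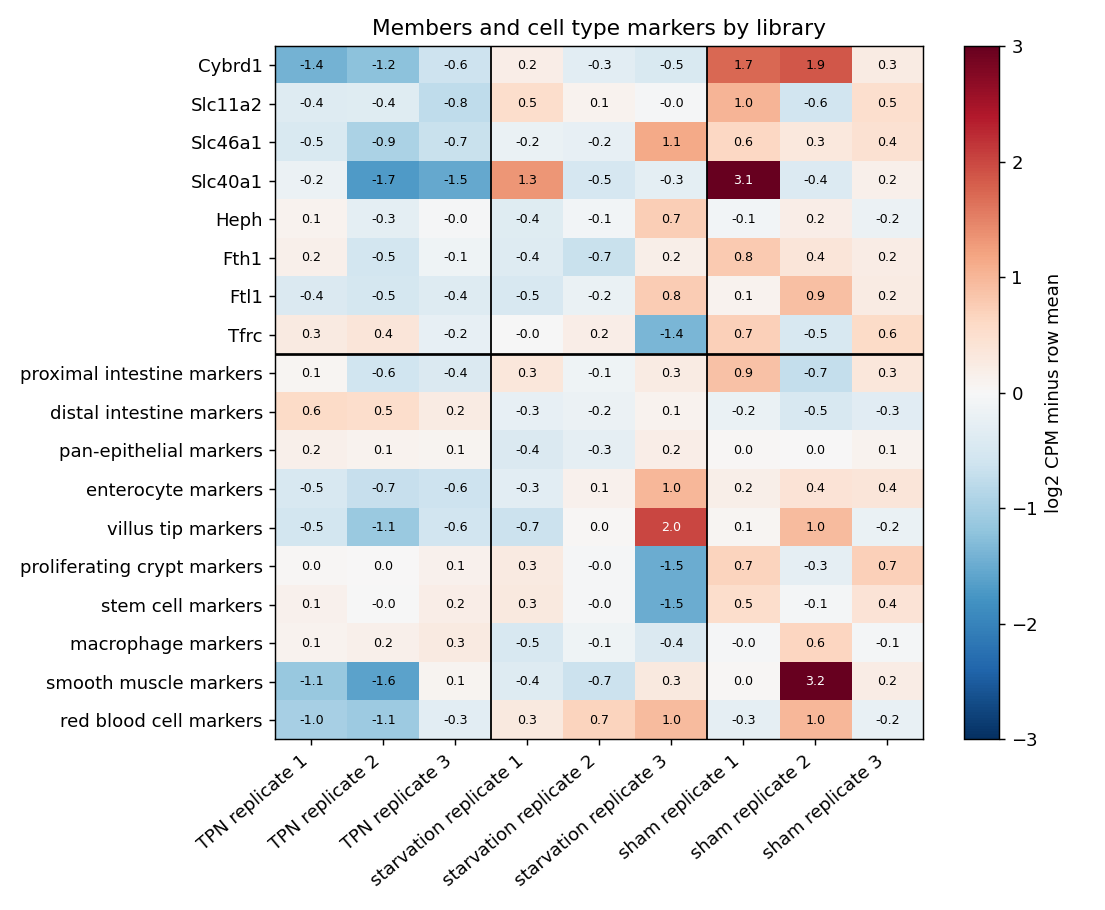
Log2 CPM of each member and mean log2 CPM of each marker list, as the difference from its mean over the 9 libraries (colour and printed value, in log2 units), with TPN, starvation and sham libraries from left to right. Smooth muscle markers stand out in sham replicate 2, villus tip, proliferation and stem cell markers in starvation replicate 3, and Slc40a1 in sham replicate 1.

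The wider iron pathway was covered by 8 lists with 133 genes, of which 121 were tested. These lists were chosen with earlier results of these data known, so a share above that of all genes may follow from that choice. In TPN against sham, edgeR called 7 higher and 16 lower, or 19% of the tested genes, against 8.6% of all genes. In starvation against sham it called 3 higher and 0 lower (2.48%, against 3.69% of all genes). In TPN against starvation it called 4 higher and 9 lower (10.7%, against 5.84% of all genes). An unadjusted p under 0.05 was reached by 40, 30 and 36 of the 121 genes in these comparisons, in the same order, against 26.9%, 23.4% and 23.1% of all genes tested. The genes named below are at most 4 per list and direction, by smallest adjusted p. Leaving out 1 TPN library lowered the share of all genes called to 1.45% to 1.62% in TPN against sham and 0.831% to 1.07% in TPN against starvation. In starvation against sham, leaving out 1 library gave 0.214% to 2.49%, except 11.6% without starvation replicate 3. Calls lost below in such fits stand beside these shares.

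Among 14 tested genes of other iron transport and storage, 3 were higher and none lower in TPN against sham, with a list median of 0.10 on the log2 scale. Slc39a8 (ZIP8, a transporter of zinc, manganese and ferrous iron) had 56.4, 61.9 and 76.2 CPM in TPN libraries, 12.4, 13.5 and 14.9 CPM in starvation libraries, and 10.1, 23.4 and 9.25 CPM in sham libraries. No TPN library came near the other groups. Slc39a8 rose by 2.19 ± 0.33 against sham (edgeR adjusted p 0.00652) and by 2.25 ± 0.33 against starvation (adjusted p 0.00748) on the log2 scale.
Steap4, a metalloreductase, had 32.4, 36.2 and 40.1 CPM in TPN libraries, 2.47, 0.844 and 4.17 CPM in starvation libraries, and 1.28, 7.79 and 4.17 CPM in sham libraries. It rose by 3.04 ± 0.60 against sham (adjusted p 0.0177), but leaving out sham replicate 3 or any 1 TPN library ended that call (adjusted p 0.0673 to 0.0721). Cp, the plasma ferroxidase ceruloplasmin, rose by 1.23 ± 0.21 against sham (adjusted p 0.0101), a call lost without TPN replicate 1 or TPN replicate 2 (0.0574 and 0.0575).
Lcn2, which binds bacterial siderophores, had 178 reads over the 3 TPN libraries and 4 over the 3 starvation libraries, or 41.3 times as many per unit of depth (95% interval from counting error, 15.9 to 153). Over the 3 sham libraries it had 21 reads, of which 16 were in sham replicate 2, against 3 and 2 in sham replicates 1 and 3. The TPN to sham ratio was 8.10 (5.14 to 13.4, counting error only, not the spread between libraries). The log2 difference of 2.91 ± 0.80 was not called (edgeR adjusted p 0.0535). The Lcn2 call in TPN against starvation (adjusted p 0.0167) was lost without any 1 TPN library (0.0666 to 0.0782).

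Among 12 tested genes of iron sensing and the hepcidin pathway, 3 were lower and none higher in TPN against sham, with a median of -0.17. Aco1 encodes IRP1, which binds the hairpins shown above when it lacks its iron-sulfur cluster and acts as cytosolic aconitase when it holds the cluster. It had 48.8, 59.6 and 53.1 CPM in TPN libraries, 105, 128 and 139.9 CPM in starvation libraries, and 115, 115 and 131 CPM in sham libraries. All TPN libraries lay below all others. Aco1 fell by 1.16 ± 0.15 against sham (edgeR adjusted p 0.00357) and fell by 1.21 ± 0.15 against starvation (adjusted p 0.00373) on the log2 scale, and both calls held without each library in turn. Ireb2, which encodes IRP2, differed by 0.39 ± 0.25 in TPN against sham (adjusted p 0.343).

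Mitochondrial iron and iron-sulfur cluster genes numbered 25, of which 2 were higher and 3 lower in TPN against sham (median -0.30). Slc25a28 (mitoferrin 2, an importer of iron into mitochondria) had 80.8, 75.8 and 64.8 CPM in TPN libraries, 74.1, 65.8 and 66.4 CPM in starvation libraries, and 42.7, 31.4 and 37.9 CPM in sham libraries. Slc25a28 rose by 0.98 ± 0.15 in TPN (edgeR adjusted p 0.00748) and by 0.88 ± 0.15 in starvation (adjusted p 0.0225) against the same sham libraries. Leaving out TPN replicate 1 or 2, starvation replicate 2, or sham replicate 3 ended the starvation call (0.0525 to 0.0828).
Of 20 tested heme genes, 4 were lower and none higher in TPN against sham, and likewise 4 and none against starvation (medians -0.44 and -0.40). Fech, the ferrochelatase that puts iron into heme, had 24.8, 22.9 and 25.6 CPM in TPN libraries, 41.6, 48.1 and 44.0 CPM in starvation libraries, and 46.6, 50.4 and 42.5 CPM in sham libraries. Fech fell by 0.93 ± 0.13 in TPN against sham (edgeR adjusted p 0.00507). Flvcr1, known as a heme exporter, fell by 1.26 ± 0.21 against sham (adjusted p 0.00913), a call lost without TPN replicate 1 or TPN replicate 3 (0.0541 and 0.0574).

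Among 9 tested HIF factors and regulators, 1 was higher and 1 lower in TPN against sham. Epas1 had 203, 195 and 172 CPM in TPN libraries, 161, 158 and 176 CPM in starvation libraries, and 145, 60.7 and 122 CPM in sham libraries, a log2 difference of 0.80 ± 0.27 in TPN against sham (edgeR adjusted p 0.0977). Hif3a, an inhibitory family member in some of its forms, had 8.90, 15.6 and 8.41 CPM in TPN libraries, 4.23, 2.64 and 1.16 CPM in starvation libraries, and 0.491, 0.533 and 0.417 CPM in sham libraries. The 3 groups did not overlap.
Hif3a rose by 4.48 ± 0.54 in TPN (adjusted p 0.00279) and by 2.48 ± 0.54 in starvation (adjusted p 0.0399) against the same sham libraries. The starvation call was lost in 8 of 9 fits that left out 1 library, starvation replicate 3 being the exception. Egln3, a prolyl hydroxylase that marks HIF for decay, fell by 2.18 ± 0.26 in TPN against sham (adjusted p 0.00247).
Of 15 hypoxia-induced genes, 1 was higher and 3 lower in TPN against sham, with a median of 0.18. Ndrg1 rose by 2.53 ± 0.21 in TPN (adjusted p 0.000460) and by 1.89 ± 0.20 in starvation (adjusted p 0.00577) against the same sham libraries. Mxi1 fell by 1.67 ± 0.25 in TPN against sham (adjusted p 0.00653).

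Of 8 copper genes, 1 was lower and none higher in TPN against sham. A further 9 genes called in TPN against sham were less stable. Slc25a37 was higher (1.198 on the log2 scale), and Smad6 (-0.87), Id1 (-1.33), Glrx5 (-0.75), Ciapin1 (-0.91), Nubp1 (-0.77), Ankrd37 (-2.37), Ero1l (-0.56) and the copper importer Slc31a1 (-0.68) were lower. Each of these 9 calls was lost without any 1 TPN library, and some also without sham or starvation libraries. Without TPN replicate 1, 2 or 3, the share of all genes called in TPN against sham was 1.45%, 1.49% or 1.62%, against 8.6% in the main fit. Of Nubp1 exons, 36.87% overlap Tvp23a on the other strand, and of Ankrd37 exons 22.68% overlap Lrp2bp.

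**Figure D5:**
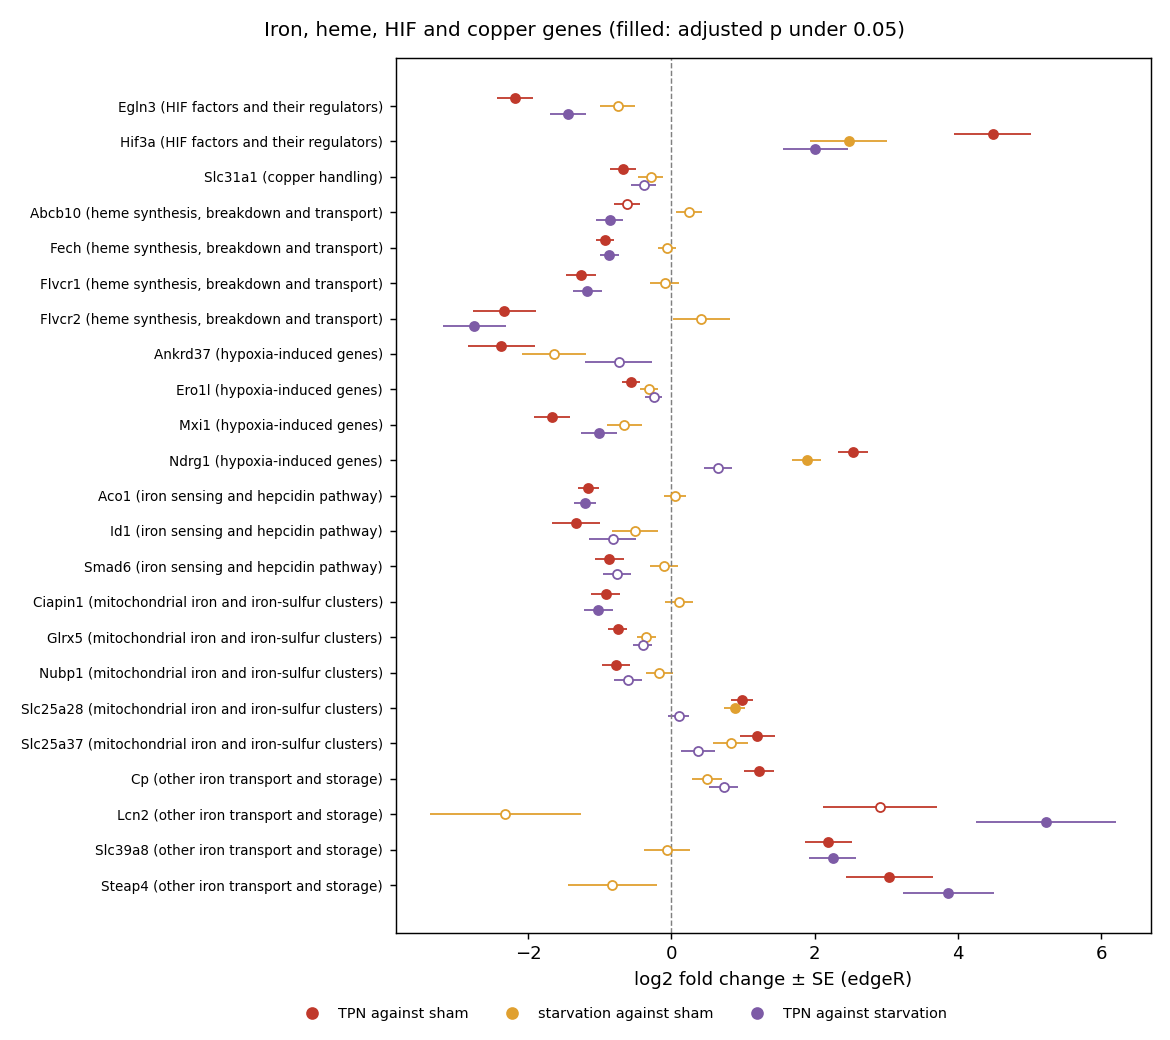
Log2 fold change ± SE (horizontal axis, edgeR) of the named genes of the iron, heme, HIF and copper lists in TPN against sham, starvation against sham and TPN against starvation; filled points have an adjusted p under 0.05. Slc39a8 and Steap4 lie right of zero and Aco1 and Fech left of it in both TPN comparisons, while their starvation points are unfilled.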

How the data were processed

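The authors deposited whole-number counts per gene symbol, not normalized, for bulk RNA-seq of 9 jejunum libraries. Per the submitters' processing notes, the builds were GRCm38 and mm10, and the tools STAR 2.7.2e, featureCounts 2.0.0, DESeq2 1.32.0, cutadapt 2.9 and FastQC 0.11.8. Not given in the sources used here were the annotation release, strand setting and handling of multiply mapped reads, and the labels' protocols name no step that marks the strand, so overlapping genes on opposite strands may share reads. Another 9 columns of counts matched no labelled sample and were not used.

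In R 4.3.3, edgeR 4.0.16 was run on the deposited counts. The filter filterByExpr kept 14668 of 21868 genes, TMM factors scaled the libraries, and the quasi-likelihood fit over all 9 libraries had 1 mean for each group. Contrasts were tested with Benjamini-Hochberg adjustment over all genes tested, at 0.05. The procedure was tested on simulated data. DESeq2 1.42.0 was an alternative, beside other scalings, filters, a replicate block and each library left out. Ratios used raw counts. Marker list levels in the text are summed CPM, in which abundant genes weigh most, and list medians are of edgeR log2 fold changes. The heat map of members and markers used a mean of log2(CPM + 0.5) for each marker list. Reads have no molecular identifiers, so counting intervals cover counting error only. Replicate chi-square per gene ran from 7.74 to 118, so no pair agreed within sampling noise.

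The members and gene lists were chosen with earlier results of these data known. The text names the 8 members, from each pathway list the called genes with the smallest adjusted p (at most 4 a direction), and for a called member the 3 genes nearest in pattern, among those with a mean log2 CPM of at least 3. Genes named outside this rule are marked where they appear or serve as regulators and markers. Some genes that met the rule are not reported here.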

Additional observations from a re-analysis of the deposited data

How the results depend on the processing

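With 3 libraries a group, the count of called members depended on the fit. In TPN against sham, where 1 member was called, DESeq2, scaling to pan-epithelial markers and a fit of only the 2 groups each called 3, library totals called 2, and leaving out sham replicate 2 and starvation replicate 3 together called 6. Of all genes, the fit of only the 2 groups called 19.4% in this comparison and library totals 8.34%, against 8.6% in the main fit. Leaving out 1 library gave 0 to 3 members in TPN against sham, 0 to 2 in starvation against sham and 0 in TPN against starvation. Of these, leaving out TPN replicate 1 or TPN replicate 2 gave 0, leaving out sham replicate 2 gave 2, and leaving out starvation replicate 3 gave 3 in TPN against sham and 2 in starvation against sham. The share of all genes called in TPN against sham was 1.45% and 1.49% without TPN replicates 1 and 2, and 6.35% without sham replicate 2. Without starvation replicate 3 it was 21.3% in TPN against sham and 11.6% in starvation against sham. In starvation against sham, DESeq2 called 1 and the joint omission 3. In TPN against starvation, DESeq2, the joint omission and the smooth muscle covariate (chosen after seeing the data) each called 1 and pan-epithelial scaling 2. The covariate fit called 8.24% of all genes in that comparison. Every member called under any of these settings was lower. The joint omission raised the share of all genes called to 29.8%, 19.9% and 21.6% in the 3 comparisons. Cybrd1 stayed just under a threshold of 0.01.

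Same-numbered libraries deviated together with a correlation over 0.1 in 2 of 9 pairs (range -0.30 to 0.378), so the numbers were not taken to pair the samples. With the replicate block, 2 members were called in TPN against sham, Cybrd1 and Slc40a1 (-2.22, adjusted p 0.0287), and 0 in each of the other comparisons. Of all genes, that fit called 3.79% in TPN against sham, 0.484% in starvation against sham and 2.63% in TPN against starvation.

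Directions turned in 22 of the member values, none of them called. Heph in TPN against sham was 0.13 with library totals, 0.10 with the joint omission and 0.28 with the smooth muscle covariate, and -0.16 to 0.057 with 1 library left out. Heph was -0.10 in starvation against sham and 0.20 in TPN against starvation with the joint omission, and -0.24 to 0.39 and -0.45 to 0.21 with 1 library left out. In starvation against sham, pan-epithelial scaling gave 0.14 for Slc11a2 and 0.11 for Slc46a1, and the covariate 0.049 for Ftl1. Leaving out 1 library gave -0.56 to 0.17 for Slc11a2, -2.22 to 0.53 for Slc40a1 and -0.72 to 0.15 for Slc46a1. In TPN against starvation, pan-epithelial scaling gave -0.23 for Fth1 and -0.072 for Tfrc, and leaving out 1 library -0.074 to 0.42 for Fth1. Tfrc in TPN against sham was -0.49 to 0.0074 with 1 library left out. Pan-epithelial scaling moved the median of all genes by 0.341 in starvation against sham and by -0.393 in TPN against starvation, and library totals by 0.187 in TPN against sham. The cause of these turns was not tested.

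The log2 Fth1 to Ftl1 difference in TPN against sham was -0.065 with the joint omission, and leaving out 1 library gave -0.065 to 0.55. The log2 Tfrc to Fth1 difference was -0.30 in TPN against starvation with the joint omission, and leaving out 1 library gave -0.30 to 0.90 there and -0.40 to 0.81 in starvation against sham. Among named pathway genes, 578 alternative values kept their call, 201 lost it and none turned.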
